A study of Drosophila melanogaster with 78 samples.

Results

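RNA of whole Drosophila melanogaster embryos at stage 15 was compared between 4 arrays of the slit/WT group and 5 arrays of the WT group, 9 of the 78 arrays in the series. The name slit/WT is read here as embryos with 1 mutant and 1 normal dose of slit (gene symbol sli). The labels give neither the slit allele nor the balancer, the WT strain, the number of embryos pooled or the way heterozygous embryos were picked. Where a comparison needed other groups, it used 4 arrays each of slit (named without /WT and read as mutant), robo/WT and comm/WT (read as heterozygous for robo1 and comm). Every one of these groups was whole embryos of the same stage, and no treatment was named. Titles call the arrays of a group biological replicates while descriptions call them technical, so the p-values may measure technical spread only. The series was set up to study pathways of axon guidance.

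Slit is a secreted protein made by the glia at the midline of the embryonic nerve cord. It repels growing axons that carry Robo receptors, and so keeps them from crossing or recrossing the midline. Commissureless holds Robo back inside crossing axons, while the netrins and their receptor Frazzled attract axons toward the midline.

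The arrays of the slit/WT group resembled each other closely (median correlation 0.996), and those of WT slightly less (median 0.994, lowest pair 0.977). All slit/WT arrays had a wider spread of signal than all WT arrays. The array SD, meaning the standard deviation of log2 intensity over the probe sets of an array, was 1.78 to 1.80 in slit/WT and 1.66 to 1.75 in WT. Because this spread moved with the groups, counts from a fit with array SD as a covariate are printed beside each list's counts against WT. For single genes chosen by the naming rule, the value from that fit is given where it ended a call against WT that is printed here. WT replicate 1 stood apart, with the lowest array SD (1.66). Its actin 3′ probe set exceeded the 5′ one by 0.34 on the log2 scale, against 0.80 to 1.06 in the other WT arrays. In slit/WT that log2 difference was 0.79 to 0.93. For GAPDH it was 1.57 to 1.79 in slit/WT and 1.51 to 1.86 in WT, with WT replicate 1 lowest. For eIF-4a it was 0.80 to 0.99 in slit/WT and 0.97 to 1.26 in WT. There WT replicate 1, at 0.985, was not the lowest WT array. Many results that rest on WT replicate 1 are given with and without it, and others only with it. A later section lists genes for which it lay far from the other WT arrays. Median intensity was 811 to 824 in slit/WT and 841 to 858 in WT.

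The markers placed these samples as whole embryos of mixed tissue. In WT the muscle gene Mlc2 ranked at percentile 99.7 of all probe sets by mean intensity, the tracheal chitin deacetylase serp at 99.3 and the hemocyte collagen Col4a1 at 98.8. Markers of the same tissue ranked far apart. Among glial markers nrv2 lay at percentile 23.5, repo at 29.7, wrapper at 44.0, moody at 73.8 and loco at 88.4. Among neuronal markers elav lay at 15.2, nSyb at 52.2 and brp at 66.2. Of the other hemocyte markers Hml lay at 10.1, srp at 21.9 and Pxn at 90.4. In RNA of whole embryos, fewer cells of a type and less RNA per cell cannot be told apart.

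Differences between slit/WT and WT were widespread and mostly small. At an adjusted p below 0.05 (limma, Benjamini-Hochberg), 8757 of 13966 probe sets were called (62.7%), of which 3519 (25.2%) were higher in slit/WT and 5238 (37.5%) lower. With array SD as a covariate the calls numbered 4773, with 1962 higher and 2811 lower. A change of at least 2-fold was found for 135 probe sets (0.967%), and 130 of them were higher (0.931%). With 1 probe set per gene, 6797 of 10844 genes were called (62.7%), 2601 higher (24%) and 4196 lower (38.7%). Of the 10803 genes placed on a chromosome arm, 2597 were higher and 4168 lower in this fit. With the covariate 1232 of them were higher and 2367 lower. The covariate counts of each list below are to be read beside these. The 4 slit/WT arrays did not overlap the 5 WT arrays for 40% of genes. The median log2 change over all genes was -0.07, and 77 genes (0.71%) were at least 2-fold higher against 1 gene (0.00922%) at least 2-fold lower. The plot of change against intensity shows this lopsided tail.

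**Figure D1:**
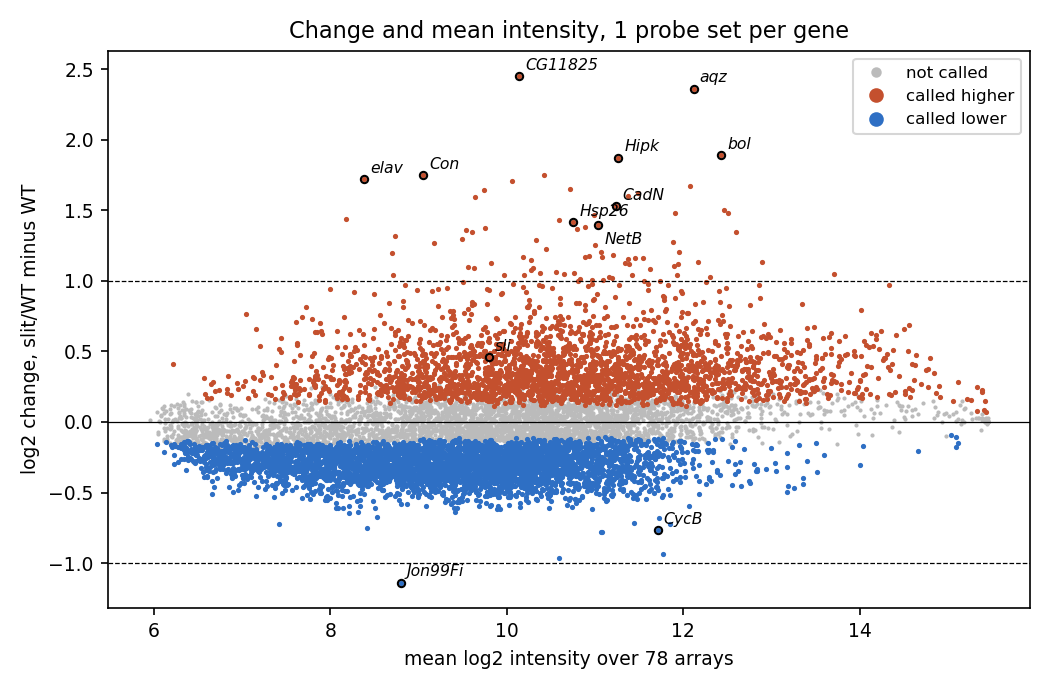
Log2 change in slit/WT minus WT (vertical) against mean log2 intensity over all 78 arrays (horizontal), 1 point per gene, coloured by the call at adjusted p below 0.05; dashed lines mark 2-fold. The points past 2-fold lie almost all above 0, 77 higher against 1 lower, and sli sits at 0.46 among many genes of like change.

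The sli transcript was not lower in the group named for it. Its log2 intensity was 10.17, 9.84, 10.31 and 10.24 in slit/WT replicates 1 to 4, and 10.07, 9.68, 9.80, 9.16 and 9.71 in WT replicates 1 to 5. The highest WT array lay above the lowest slit/WT array, so the groups overlapped. The log2 change of sli was 0.46 ± 0.10 (SE of the fit, n = 4 and 5), which is 1.38-fold higher (limma adjusted p = 9.3e-05), and 0.56 without WT replicate 1. In slit embryos sli lay at 9.22, 9.30, 9.45 and 9.70, below all slit/WT arrays. The sli probe set therefore gives no check of the reduced dose that the group name implies. For comparison, robo1 was lower in robo/WT than in WT, by a log2 change of -0.25 (adjusted p = 0.0021), and comm was lower in comm/WT, by -0.24 (adjusted p = 7.2e-05). These 3 comparisons share the WT arrays.

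Of the 20 measured genes nearest to sli on its chromosome, 10 on each side, 3 were called higher in slit/WT and 10 lower. Their median log2 change was -0.17, with a range from -0.41 to 0.46. Over all genes 24% were called higher and 38.7% lower, with a median of -0.07. A difference of these neighbours from all genes was not tested.

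Receptors and regulators of the Slit system were somewhat higher in slit/WT. The receptor robo1 was at 11.60, 11.73, 11.57 and 11.58 in slit/WT, and at 11.58, 11.35, 11.34, 11.10 and 11.36 in WT. WT replicate 1 lay inside the slit/WT range and the other WT arrays lay below it. The change was 0.28 ± 0.07 (adjusted p = 0.00051), and 0.17 with quantile normalization (adjusted p = 0.054), which ends the call. The gene comm, whose product lowers Robo on crossing axons, was called 0.17 higher (adjusted p = 0.0028). That call was lost with quantile normalization, where its change was -0.003 (adjusted p = 0.97), and with array SD as a covariate, where it was 0.10 (adjusted p = 0.16). Its relative comm2 was 0.21 higher (adjusted p = 0.0017), and 0.11 with the covariate (adjusted p = 0.19).

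The co-receptor and the protease of this system changed more than the receptors. Sdc encodes syndecan, a heparan sulfate proteoglycan that binds Slit. Its log2 intensity was 12.40, 12.38, 12.41 and 12.39 in slit/WT, against 11.62, 11.48, 11.47, 11.42 and 11.44 in WT. All slit/WT arrays lay above all WT arrays by a wide margin, and the rise was 0.91 ± 0.06, or 1.88-fold (adjusted p = 3.7e-19). The metalloprotease gene kuz, whose product cleaves Robo, was at 10.46, 10.18, 10.40 and 10.22 in slit/WT, and at 9.09, 9.29, 9.26, 9.69 and 9.59 in WT. Here too the groups did not overlap, and the rise was 0.93 ± 0.10, or 1.91-fold (adjusted p = 3.1e-12).

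Of the 16 measured genes of the Slit pathway, 13 were called higher in slit/WT and none lower, with a median log2 change of 0.43. With array SD as a covariate 8 were called higher and none lower, with a median of 0.18, and with quantile normalization 11 and 1. The actin regulator ena, which acts downstream of Robo, rose by 0.79 ± 0.12 (adjusted p = 1.7e-07), although WT replicate 1 at 9.63 overlapped the slit/WT array at 9.46. The glypican gene dlp rose by 0.58 (adjusted p = 6.5e-07), the GTPase regulator RhoGAP93B by 0.51 (adjusted p = 2.4e-10), and the profilin gene chic by 0.49 (adjusted p = 0.00012). Dystroglycan, encoded by Dg, binds the matrix and takes part in Slit signalling. It was called 0.59 higher (adjusted p = 4.3e-05), or 0.42 without WT replicate 1, but only 0.06 higher with the covariate (adjusted p = 0.63). The 3 members not called were comm3 (-0.08), the kinase gene Abl (0.07) and the exchange factor gene Sos (0.12).

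The largest change among guidance genes was in the midline attractant NetB. Its log2 intensity was 11.44, 11.33, 11.44 and 11.43 in slit/WT, and 10.31, 9.96, 9.98, 10.06 and 9.76 in WT. No array overlapped, and the rise was 1.39 ± 0.10, or 2.63-fold (adjusted p = 2.4e-18). The attractive receptor gene fra stood at 11.61, 11.44, 11.62 and 11.52 in slit/WT, against 10.09, 11.23, 11.03, 11.37 and 11.11 in WT. WT replicate 1 was by far the lowest array, and the change of 0.58 ± 0.13 (adjusted p = 0.00018) was 0.36 without it (adjusted p = 0.0062). With the covariate the change of fra was 0.15 (adjusted p = 0.40), which ends the call. The repulsive netrin receptor gene unc-5 rose by 0.28 (adjusted p = 5.3e-05), with no overlap, and its 2 other probe sets gave 0.70 (adjusted p = 1.7e-05) and 0.05 (adjusted p = 0.56).

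**Figure D2:**
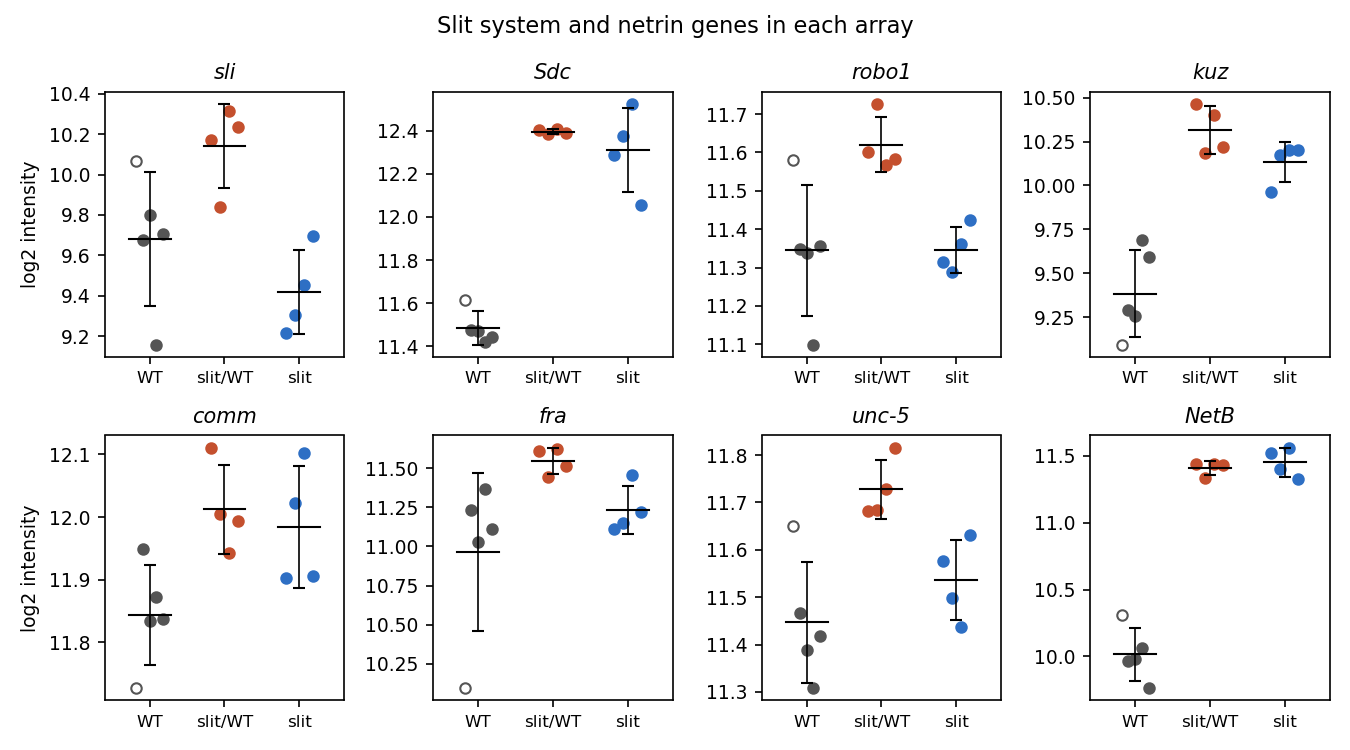
Log2 intensity of 8 genes of Slit and netrin signalling (vertical, own scale per gene) in the 5 WT, 4 slit/WT and 4 slit arrays; points are arrays, lines the mean, bars 1 SD, and the open circle is WT replicate 1. Sdc, kuz and NetB separate slit/WT from WT without overlap, sli and robo1 overlap, and the WT spread of fra rests on replicate 1 at 10.09.

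Among 21 other axon guidance genes, 16 were called higher in slit/WT and none lower, with a median log2 change of 0.48. With the covariate 11 were higher and none lower, with a median of 0.23. The semaphorin receptor gene PlexB rose by 0.82 (adjusted p = 4.4e-08), and its 4 slit/WT arrays lay at 9.60 to 9.86 against 8.14 to 9.27 in WT. Sema1a, which encodes a transmembrane semaphorin, rose by 0.77 (adjusted p = 1.6e-08) at a low level of 7.03 to 7.68. The integrin subunit gene mew rose by 0.71 (adjusted p = 1.3e-10), its beta partner mys by 0.53 (adjusted p = 6e-07), and the receptor phosphatase gene Lar by 0.70 (adjusted p = 3.2e-09). For each of these 5 genes the slit/WT arrays did not overlap with the WT arrays. The 5 genes not called were beat-Ia, side, Ptp10D, Mical and if, with changes between -0.16 and 0.15.

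Markers of midline cells, where Slit is made, were mostly higher. Of 9 measured genes 7 were called higher and 1 lower, with a median of 0.35, and with the covariate 4 were higher and none lower. The transcription factor gene vvl rose by 0.78 (adjusted p = 6.7e-14). Star (gene S) and spitz (spi), which act together in EGF receptor signalling of midline glia, rose by 0.57 (adjusted p = 6.2e-12) and 0.52 (adjusted p = 4.3e-08). The Sox factor gene D rose by 0.36 (adjusted p = 4.4e-05), and its change was 0.13 with the covariate (adjusted p = 0.18). The LIM factor gene tup was called 0.31 lower, and showed 0.02 with the covariate (adjusted p = 0.84), while its other probe set was called 0.47 higher (adjusted p = 6.1e-05).

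The 15 genes with the highest non-overlapping changes were led by CG11825, for which no role is given here. Its log2 intensity was 10.55, 10.38, 10.35 and 10.53 in slit/WT, and 7.76, 7.99, 8.03, 8.05 and 8.19 in WT. The groups lay far apart with little spread in either, and the rise was 2.45 ± 0.12, or 5.46-fold (adjusted p = 2.4e-27). The gene aqz followed with 12.91, 12.94, 12.95 and 12.87 in slit/WT against 11.63, 10.13, 9.98, 10.69 and 10.35 in WT. WT replicate 1 was the closest WT array to slit/WT, and the rise of 2.36 (5.14-fold, adjusted p = 6.4e-23) was 2.63 without it.

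The 15 genes included bol, an RNA-binding protein of the DAZ family known from male meiosis (1.89), the decapping enzyme gene DCP2 (1.75), and Hrb27C, a protein of nuclear RNA particles (1.67). They also included spen, a large nuclear RNA-binding protein (1.60), the splicing regulator gene Rbfox1 (2.83-fold) and the noncoding RNA lncRNA:CR32218 (1.59). For bol the slit/WT arrays were at 13.03, 12.92, 12.96 and 13.08, and the WT arrays at 12.32, 10.42, 10.73, 10.92 and 11.15. WT replicate 1 again lay nearest to slit/WT, and without it the change was 2.19. A second probe set of bol, at a much lower level, rose by only 0.29 (adjusted p = 0.00034).

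Among the others of the 15, the homeodomain-interacting kinase gene Hipk was at 12.25, 12.07, 12.06 and 12.14 in slit/WT and at 10.99, 10.15, 10.03, 9.92 and 10.19 in WT, without overlap. It rose 3.66-fold (1.87, adjusted p = 1.4e-20), while its second probe set showed 0.12 (adjusted p = 0.17). The corepressor gene Smr rose by 1.62, the antiproliferative factor gene Tob by 1.64, RhoGAP19D by 1.71 and kmr by 1.65. A second Smr probe set rose by 0.97 (adjusted p = 1.3e-08), and the 2 other kmr probe sets showed 0.29 (adjusted p = 0.0005), called higher, and -0.11 (adjusted p = 0.2).

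Neural adhesion genes included 2 of these 15. Con encodes connectin, an adhesion protein of motor axons and their target muscles. It was at 9.85, 9.79, 9.97 and 9.86 in slit/WT, and at 8.12, 8.13, 8.33, 7.76 and 8.26 in WT. The groups lay far apart, and the rise was 1.75 ± 0.10, or 3.35-fold (adjusted p = 1.3e-22). CadN, the neuronal cadherin of axon bundles, was at 11.99, 11.72, 11.88 and 11.80 against 10.19, 10.15, 10.30, 10.52 and 10.45. It too showed no overlap, with a rise of 1.53, or 2.88-fold (adjusted p = 3.6e-22). Neurexin (Nrx-1), a synaptic adhesion protein, rose by 1.36 and the leucine-rich repeat protein gene caps by 0.78. In all, 14 of 18 neural adhesion genes were called higher and 1 lower, with a median of 0.49. With the covariate 10 were higher and none lower, and without WT replicate 1 the counts were 13 and 0.

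Neuronal genes moved in both directions. Of 17 markers of differentiated neurons 9 were called higher and 4 lower, with a median of 0.22, and with the covariate 8 were higher and 2 lower. The median genomic span of these markers was 26844 bases. Among the genes of longest span, described below, 50.5% were called higher and 21.6% lower. The pan-neuronal RNA-binding protein gene elav was at 9.85, 9.30, 9.42 and 9.65 in slit/WT, and at 9.35, 7.46, 7.40, 7.17 and 7.81 in WT. WT replicate 1 lay within the slit/WT range while the other WT arrays were far below. The rise was 1.72 ± 0.20 (adjusted p = 4.6e-11), and 2.10 without that array. Its relative fne rose by 1.11 (adjusted p = 1.6e-16), and by 0.99 without WT replicate 1. The monoamine transporter gene Vmat rose by 1.17 (adjusted p = 1.5e-17), although a dimmer Vmat probe set showed -0.09 (adjusted p = 0.19). The microtubule protein gene futsch was called 0.46 lower (adjusted p = 1.5e-06), and its 2 other probe sets were called 0.20 lower and 0.30 higher. The active zone gene brp did not pass the test (0.02, adjusted p = 0.83).

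Among 17 genes of neural precursors 6 were called higher and 3 lower, with a median of 0.11, and with the covariate 7 were higher and none lower. The lower count was 5 without WT replicate 2 or without WT replicate 4. The transcription factor genes grh, SoxN and pros rose by 0.80, 0.62 and 0.49, and the proneural gene l(1)sc was called 0.42 lower (adjusted p = 1.7e-05). With the covariate l(1)sc showed -0.13 (adjusted p = 0.18).

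Of 15 glial genes 10 were called higher and 1 lower, with a median of 0.32. Without WT replicate 1 the counts were 6 and 1, and with the covariate they were 2 and 1. The EGF receptor gene Egfr rose by 0.66 (adjusted p = 4.4e-08), and Gli, a protein of glial septate junctions, by 0.63 (adjusted p = 9.1e-08). For the astrocyte gene alrm the 4 slit/WT arrays lay at 10.68 to 11.03 and WT replicate 1 at 8.85, against 10.42 to 10.70 in the other WT arrays. Its change was 0.59 (adjusted p = 0.0014), and 0.25 without that array (adjusted p = 0.052) or 0.01 with the covariate (adjusted p = 0.97). The glial regulator gene loco was lower by -0.33 (adjusted p = 4.6e-05).

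**Figure D3:**
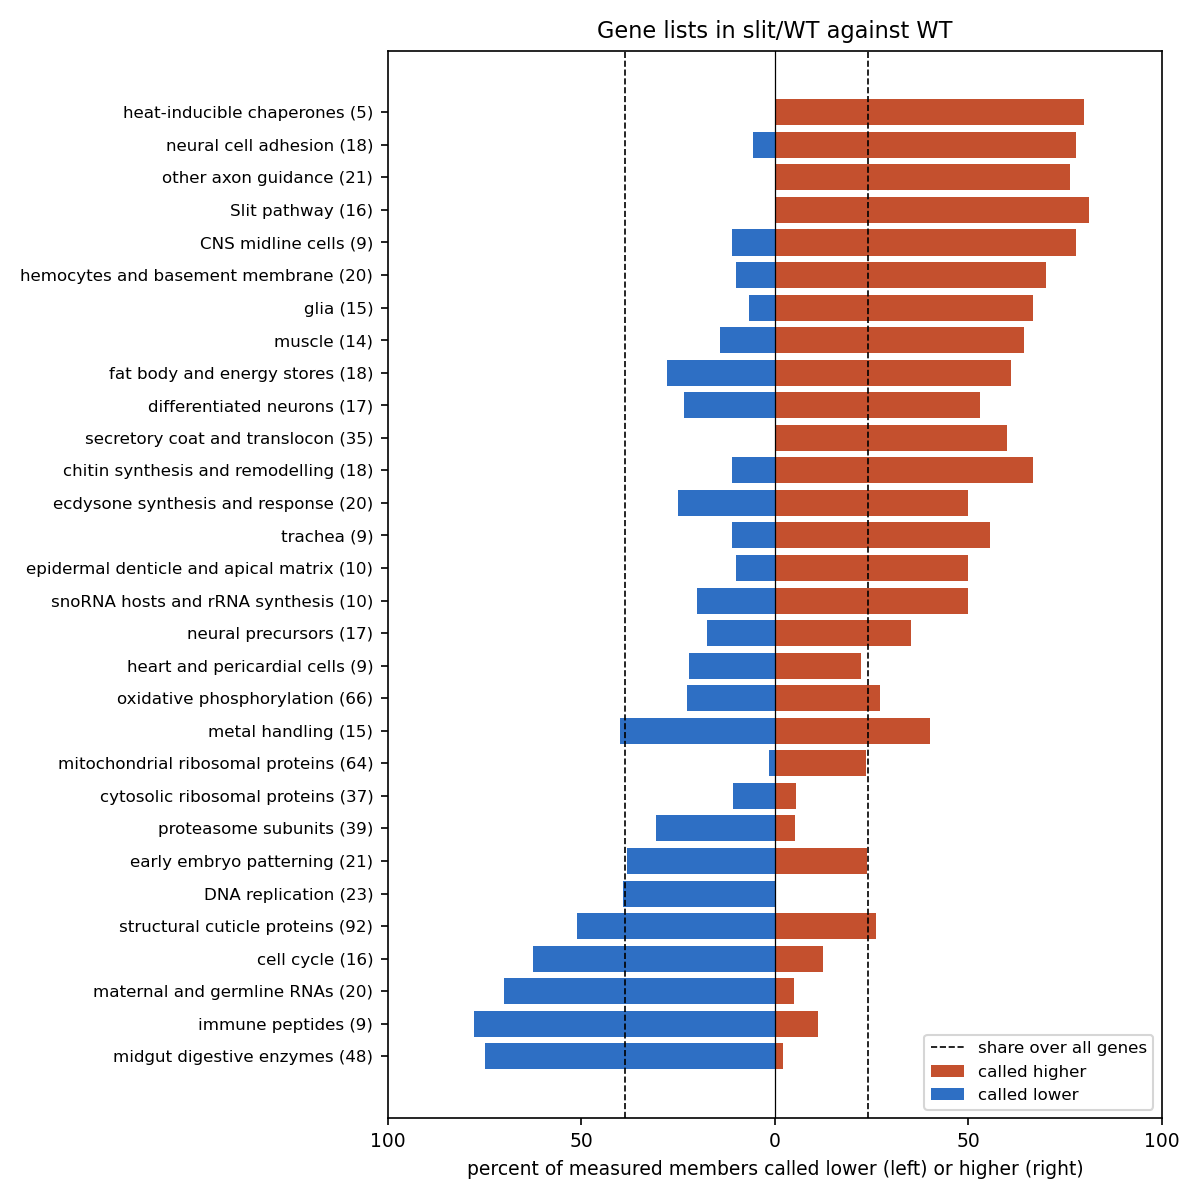
Percent of the measured members of each gene list called higher (right) or lower (left) in slit/WT against WT, ordered by median log2 change, with the number of measured members in brackets; dashed lines mark the shares over all genes, 24% higher and 38.7% lower. Neural, guidance and chaperone lists extend to the right, and midgut enzymes, immune peptides and maternal RNAs to the left.

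Muscle genes were higher in slit/WT, mostly in the fit without the covariate. Of 14 measured, 9 were called higher and 2 lower (median 0.30), against 1 and 1 with the covariate. Troponin T (gene up) rose by 1.05 ± 0.12, or 2.06-fold (adjusted p = 1.8e-11), from 12.60 to 13.43 in WT to 13.96 to 14.12 in slit/WT. A second up probe set rose by 0.997 (adjusted p = 2.3e-17). The giant muscle protein gene bt was called 0.89 higher (adjusted p = 3.8e-05), with WT replicate 1 at 9.82 against 11.30 to 11.63 in the other WT arrays, and its change was 0.57 without that array. With the covariate this bt probe set showed 0.13 (adjusted p = 0.52), which ends the call. A second, dimmer bt probe set rose by 1.74 (adjusted p = 5.5e-16). Of 9 heart and pericardial genes 2 were higher and 2 lower, and with the covariate 4 and 1. Of 9 tracheal genes 5 were higher and 1 lower, and with the covariate 3 and none. The tracheal FGF gene bnl rose by 0.41 (adjusted p = 2.3e-07), while its receptor gene btl was called 0.36 lower (adjusted p = 0.00032), and -0.11 with the covariate (adjusted p = 0.34).

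Genes of hemocytes and the basement membrane showed a similar dependence. Of 20 measured, 14 were called higher and 2 lower (median 0.35). Without WT replicate 1 the counts were 9 and 1, and with the covariate 3 and 2. The basement membrane collagen gene Mp rose by 1.38 (2.6-fold, adjusted p = 4.8e-18), with slit/WT at 9.77 to 9.93 and WT at 8.35 to 8.57. Its 2 other probe sets gave 0.43 (adjusted p = 0.0003) and -0.03 (adjusted p = 0.75). The engulfment receptor gene drpr rose by 0.77 (adjusted p = 4.9e-09), and the growth factor receptor gene Pvr by 0.61 (adjusted p = 1.8e-06). For Pvr the change was 0.46 without WT replicate 1, and 0.20 with the covariate (adjusted p = 0.084), which ends the call. The hemocyte genes Pxn, Hml and Col4a1 did not move together. Pxn, a peroxidase of the extracellular matrix, was at -0.004 (adjusted p = 0.97), Hml, which encodes the clotting protein hemolectin, was lower by -0.25 (adjusted p = 0.0012), and the collagen gene Col4a1 was higher by 0.19 (adjusted p = 0.012).

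In the outer epithelium, 5 of 10 genes of denticles and apical matrix were called higher and 1 lower, and with the covariate 4 and 1. The denticle matrix gene neo rose by 0.83 (adjusted p = 1.4e-10). Of 18 genes of chitin synthesis and remodelling 12 were higher and 2 lower (median 0.19), but 5 and 4 with quantile normalization, and 6 and 1 with the covariate, where the median was -0.005. Cht6, a chitinase, was at 12.56, 12.46, 12.72 and 12.40 in slit/WT, and at 10.77, 11.38, 11.22, 11.41 and 11.16 in WT, with no overlap. It rose 2.55-fold (1.35, adjusted p = 2.1e-16), while its 2 other probe sets were not called (0.04 and 0.06).

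Structural cuticle proteins were called lower more often than higher. Of 92 measured, 47 were called lower and 24 higher, with a median of -0.18, and with the covariate 23 and 5. Over all genes 38.7% were lower and 24% higher in the main fit. The median span of the list was 1097.5 bases. Among the genes of shortest span, described below, 59.2% were lower and 6.29% higher. A difference of the list from such genes was not tested. The 4 largest changes were higher nevertheless, and each rested in part on WT replicate 1. Cpr67Fa2 was at 9.57 to 9.67 in slit/WT, at 7.68 in WT replicate 1 and at 8.996 to 9.29 in the other WT arrays. Its change of 0.82 was 0.53 without that array, those of Cpr65Eb and TwdlW went from 0.62 to 0.41 and from 0.59 to 0.31, and that of TwdlQ from 0.57 to 0.43. With the covariate Cpr67Fa2 showed 0.11 (adjusted p = 0.59), Cpr65Eb 0.21 (adjusted p = 0.089) and TwdlW 0.19 (adjusted p = 0.22), none of them called. TwdlW was also not called in the fit of the compared groups alone (adjusted p = 0.077).

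Ecdysone genes, which time the molts, gave 10 of 20 higher and 5 lower (median 0.18), and 6 and 1 with the covariate. With quantile normalization the counts were 9 and 2. The lower count was 2 without WT replicate 1, or without slit/WT replicate 1. The nuclear receptor gene Hr4 rose by 1.09 (2.13-fold, adjusted p = 3.3e-12), and its dimmer probe set showed -0.07 (adjusted p = 0.46). ImpL2, an ecdysone-inducible insulin-binding protein, rose by 0.88 (adjusted p = 6.1e-17), and the receptor gene Hr39 by 0.66 (adjusted p = 9.3e-11).

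The heat-inducible chaperones had the highest median of the 30 lists, at 0.85, with 4 of 5 called higher and 5 of 5 with the covariate. The lists were drawn up with earlier results of these data known, so this rank is no independent result. The small heat shock protein gene Hsp26 was at 11.47, 11.38, 11.46 and 11.40 in slit/WT, and at 9.82, 10.01, 10.10, 10.05 and 10.08 in WT. Its groups were tight and far apart, and the rise was 1.42 ± 0.15, or 2.67-fold (adjusted p = 2.4e-12). The cytosolic Hsp70 relative Hsp68 was at 10.12, 10.02, 10.01 and 10.03 against 8.90, 8.63, 8.73, 8.73 and 8.76. No array overlapped, and the rise was 1.29, or 2.45-fold (adjusted p = 8.8e-09). The co-chaperone gene DnaJ-1 rose by 0.85 (adjusted p = 1e-16) and Hsp27 by 0.50 (adjusted p = 3.3e-07), while the co-chaperone gene stv showed 0.06 (adjusted p = 0.52).

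Genes of midgut digestion had the lowest median of the lists, a rank with the same limit as that of the chaperones. Of 48 measured, 36 were called lower and 1 higher, with a median of -0.43, and with the covariate 19 and none. Many of these genes have near-identical copies, so signal may be shared between them. The chymotrypsin-like protease gene Jon99Fi was at 6.95, 6.99, 6.56 and 7.01 in slit/WT, and at 10.93, 7.17, 7.25, 7.47 and 7.24 in WT. All slit/WT arrays were lowest, and WT replicate 1 stood far above every other array. The change of -1.14 (adjusted p = 0.00082), which made it the 1 gene called 2-fold lower, became -0.41 without that array (adjusted p = 0.014). The same array was also highest for Jon25Biii (-0.97, and -0.51 without it), Jon99Fii (-0.93 and -0.35) and the trypsin gene epsilonTry (-0.78 and -0.50). With the covariate Jon99Fi showed -0.59 (adjusted p = 0.17) and Jon99Fii -0.46 (adjusted p = 0.15), neither called. In the fit of the compared groups alone Jon99Fi (adjusted p = 0.17), Jon99Fii (adjusted p = 0.16) and Jon25Biii (adjusted p = 0.073) were not called. Without WT replicate 1 the list still had 36 genes called lower and 1 higher, with a median of -0.30.

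Of 9 immune peptide genes 7 were called lower, 1 higher and 1 neither, with a median of -0.31. With the covariate 4 were lower and 1 higher. The peptide genes BomS2, Drsl6 and DptB were lower by -0.61, -0.57 and -0.44, and BomBc2, also among the 15 lowest genes, by -0.64 (adjusted p = 3.2e-12). Drsl5, a drosomycin-like peptide, was at 11.77, 11.77, 11.58 and 11.82 in slit/WT and at 10.77, 10.58, 10.59, 10.69 and 10.49 in WT. It rose 2.17-fold without overlap (1.12, adjusted p = 4.5e-14).

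Fat body and energy genes gave 11 of 18 higher and 5 lower (median 0.27), but 2 higher and 4 lower with the covariate. Pepck1, an enzyme of glucose synthesis, rose by 0.97 (1.95-fold, adjusted p = 4.6e-17), with slit/WT at 12.95 to 13.10 and WT at 11.89 to 12.30. The larval storage protein gene Lsp2 was lower by -0.44 (adjusted p = 1e-07). Of 15 genes of metal handling 6 were higher and 6 lower (median 0.08), against 1 and 2 with the covariate (median -0.07). The metallothionein gene MtnA rose by 0.51 (adjusted p = 3.8e-07), and by 0.17 with the covariate (adjusted p = 0.036).

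Of 16 cell cycle genes 10 were called lower and 2 higher, with a median of -0.23, and with the covariate 5 and 1. CycB, the mitotic cyclin B, was at 11.12, 10.98, 11.00 and 11.00 in slit/WT, and at 11.85, 11.83, 11.71, 11.82 and 11.74 in WT. The groups were well separated, and CycB fell by 0.77 on the log2 scale, or 1.7-fold (adjusted p = 2.9e-16). The meiotic phosphatase gene twe was lower by -0.55 and the securin gene pim by -0.42, whereas cyclin E (CycE), which drives entry into S phase, rose by 0.64 (adjusted p = 2.1e-06). Of 23 DNA replication genes 9 were called lower and none higher in both fits, and 14 were not called. The lower share is near the 38.7% of all genes called lower. The origin recognition subunit gene Orc2 was lower by -0.47 (adjusted p = 4.5e-06). Without WT replicate 1 the counts were 8 and 1.

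RNAs deposited by the mother or made in the germ line were lower for 14 of 20 genes and higher for 1, with a median of -0.29, and for 5 and none with the covariate. The gene swa, needed to place bcd mRNA in the egg, was lower by -0.73 (adjusted p = 2.7e-06), and the thioredoxin gene dhd by -0.61 (adjusted p = 2.6e-08). The yolk protein gene Yp2 was lower by -0.54 (adjusted p = 2.8e-10). The exception, gcl, of germ cell formation, was called 0.54 higher (adjusted p = 4.2e-06), and 0.11 with the covariate (adjusted p = 0.23). Of 21 early patterning genes 5 were higher and 8 lower (median -0.08), shares near those of all genes. The balance turned to 9 higher and 6 lower with quantile normalization, and to 6 and 2 with the covariate (median 0.06). The pair-rule gene hry rose by 0.74 (adjusted p = 3.1e-09) and the BMP ligand gene dpp by 0.66 (adjusted p = 6.9e-09), while the gap gene gt was lower by -0.40 (adjusted p = 2.9e-07).

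Housekeeping complexes changed little in the main fit. For mitochondrial ribosomal and oxidative phosphorylation genes the direction depended on scaling. Of 37 cytosolic ribosomal protein genes 31 were not called, 2 were higher and 4 lower, with a median of 0.00, and with the covariate 1 was higher and 7 lower. The paralogue RpS5b, known from the ovary, rose by 0.64 (adjusted p = 1.2e-10) and RpS28a was lower by -0.47 (adjusted p = 2e-09). Of 64 mitochondrial ribosomal protein genes 15 were higher and 1 lower (median 0.07), but 3 and 21 with quantile normalization (median -0.03) and none and 33 with the covariate (median -0.17). Oxidative phosphorylation gave 18 higher and 15 lower of 66 (median 0.09), but 4 and 25 with quantile normalization (median -0.09) and 1 and 33 with the covariate. Of 39 proteasome genes 2 were higher and 12 lower, but none and 28 with the covariate. The most lowered of them were the testis paralogues Prosalpha4T2 (-0.61) and Prosbeta5R1 (-0.56), followed by Rpt4R (-0.51) and Prosalpha3T (-0.46).

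Of 35 genes of vesicle coats and the translocon 21 were higher and none lower (median 0.22), against 7 and 6 with the covariate. The vesicle fusion gene Sec22 rose by 0.62 (adjusted p = 9.6e-07), the coat subunit gene gammaCOP by 0.59 (adjusted p = 5.6e-08) and Sec16, of export sites on the endoplasmic reticulum, by 0.55 (adjusted p = 4.5e-07). A dimmer Sec16 probe set showed 0.05 (adjusted p = 0.59). Of 10 snoRNA hosts and rRNA synthesis genes 5 were higher and 2 lower (median 0.14), against 1 and 2 with the covariate (median -0.03) and 3 and none with quantile normalization. Without WT replicate 5 the counts were 2 and 1, and without WT replicate 1 they were 3 and 2. Leaving out slit/WT replicate 3 or 4 likewise left 3 higher. The RNA polymerase I factor gene udd rose 2.3-fold (1.20, adjusted p = 8.3e-18), with slit/WT at 11.36 to 11.79 and WT at 10.05 to 10.71.

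The remaining genes of the 15 lowest non-overlapping changes were lower by less than 1 on the log2 scale. CG7384 was lower by -0.75, CG32603 by -0.72 and CG4734 by -0.71, and no role is given for them here. The lysozyme gene LysD was lower by -0.68, and by -0.51 without WT replicate 1. The neprilysin-like gene Nepl5 was lower by -0.67, the dehydrogenase gene Antdh by -0.65 and ttm2, of the mitochondrial import machinery, by -0.64. For CG4734 the slit/WT arrays were at 10.90 to 11.13 and the WT arrays at 11.62 to 11.80 (adjusted p = 3e-17).

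The shares of calls in slit/WT differed with gene length and signal level, in values given without a test. Genes were split into 5 groups of equal size. In the group with the shortest genomic span, with a median of 874.5 bases, 6.29% were higher and 59.2% lower. In the group with the longest span, with a median of 15888 bases, 50.5% were higher and 21.6% lower. The same order held with the covariate, where 2.50% were higher in the shortest group and 34.3% in the longest. Of the 77 genes called 2-fold higher 61 lay in the longest group, and their median span was 18458 bases against 2385 over all genes. By mean intensity, 7.19% were higher in the dimmest group and 45.2% in the brightest, while 49.6% and 17.7% were lower. With the covariate the gradient by intensity was smaller for higher calls, 7.28% and 14.5%, and turned for lower calls, 11.0% and 28.7%. The gene lists differed in span as well. Median span was 19732 bases for the Slit pathway, 26844 for differentiated neurons, 31720 for other axon guidance and 33684 for neural adhesion. It was 942 bases for midgut digestive enzymes, 399 for immune peptides and 2161 for heat-inducible chaperones. The parts of gene length and signal level in the changes above were not tested.

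**Figure D4:**
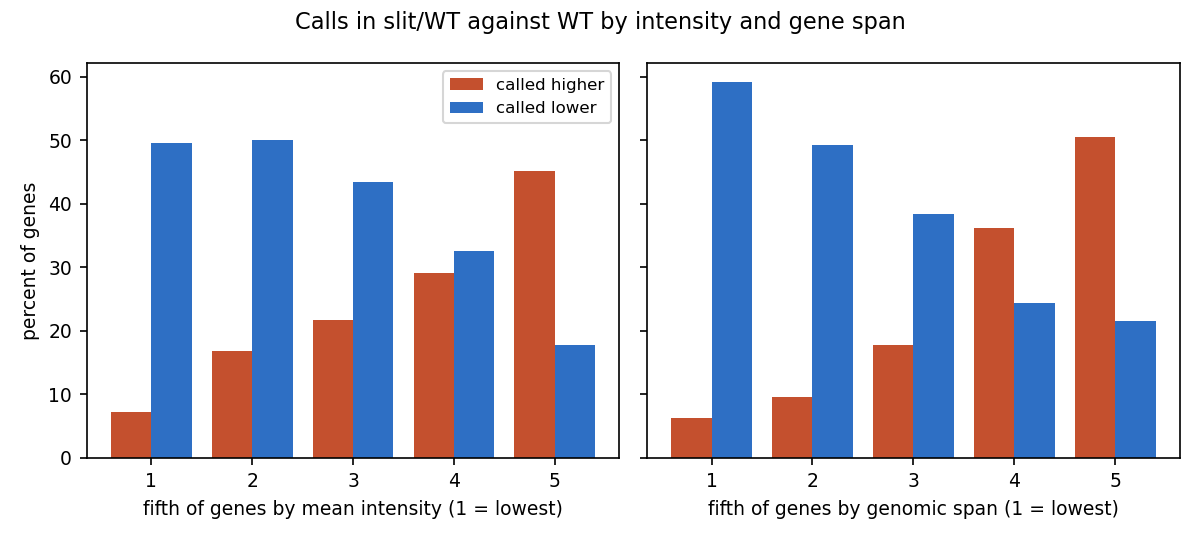
Percent of genes called higher and lower in slit/WT against WT in 5 equal groups of genes by mean log2 intensity (left) and by genomic span (right), from lowest to highest. Higher calls climb from 7.19% to 45.2% with intensity and from 6.29% to 50.5% with span, while lower calls decline.

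Genes of chromosome 4, the small chromosome of mostly heterochromatic character, were more often called higher than those of the other arms, a difference that was not tested. Of 57 measured genes 47 were called (82.5%), 44 of them higher (77.2%), with a median log2 change of 0.44. The other arms had 61.8% to 63.7% of genes called and 20.2% to 25.4% higher, and 62.6% were called over all arms. Mean log2 intensity over the 57 genes was 9.89, 9.81, 9.93 and 9.90 in slit/WT, and 9.17, 9.65, 9.56, 9.56 and 9.48 in WT. The arrays did not overlap, and WT replicate 1 was lowest. The median was 0.36 without WT replicate 1, 0.46 with quantile normalization and 0.15 with the covariate, where 20 genes were higher and 3 lower. The median span of these genes was 10578 bases, longer than that of all genes. In slit, robo/WT and comm/WT the median change of these genes against the same WT arrays was 0.32, 0.28 and 0.38. Tested without WT arrays, 14 of the 57 were higher and 5 lower in slit/WT than in the mean of robo/WT and comm/WT, with a median of 0.01.

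**Figure D5:**
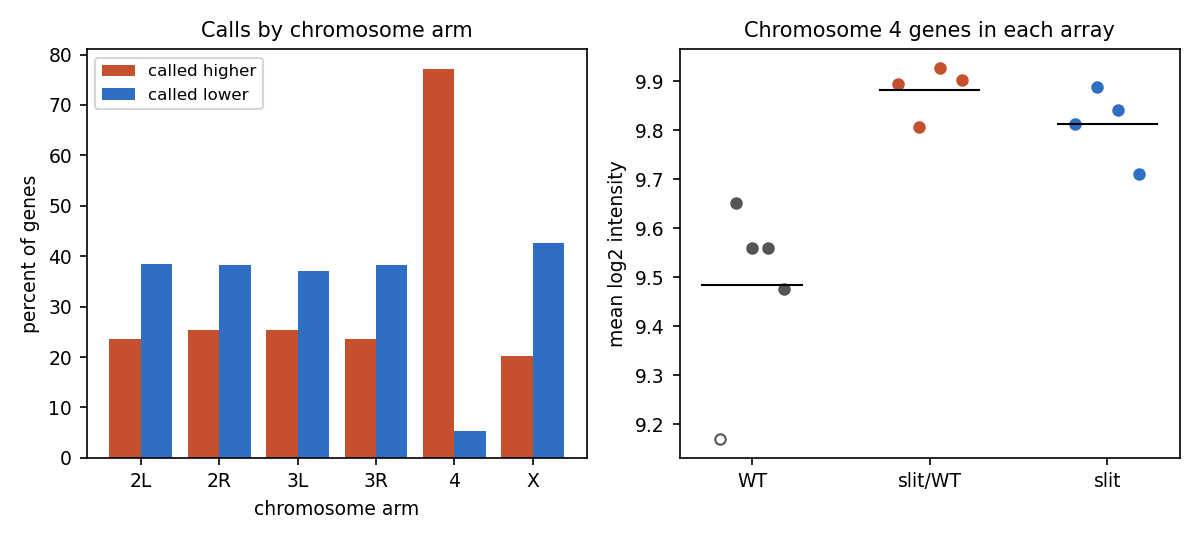
Left, percent of genes called higher and lower in slit/WT against WT by chromosome arm; right, mean log2 intensity of the 57 chromosome 4 genes in each WT, slit/WT and slit array, with the open circle for WT replicate 1 and lines for group means. Chromosome 4 has 77.2% higher and 5.26% lower, and its slit/WT arrays lie at 9.81 to 9.93 above all WT arrays.

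The comparison of slit with slit/WT asks what differs between the mutant and the heterozygous group without using WT. In array SD slit replicate 4 stood apart, at 1.73 against 1.77 to 1.80 in the other slit arrays. Of all probe sets 3679 were called, 3161 without slit replicate 4 and 3912 with array SD as a covariate. Values of single genes below include that array and are from the fit without the covariate. With 1 probe set per gene 2834 of 10844 genes were called (26.1%), 1508 higher in slit (13.9%) and 1326 lower (12.2%). At least 2-fold higher were 3 genes (0.0277%), and at least 2-fold lower 9 (0.083%). The snoRNA host gene Uhg1 was at 6.85, 6.89, 6.85 and 7.01 in slit, against 8.62, 8.62, 8.49 and 8.79 in slit/WT. The groups lay far apart, and Uhg1 was lower in slit by -1.73 (adjusted p = 1.2e-14). Against WT its change in slit/WT was -0.36 (adjusted p = 0.026), but -0.65 without WT replicate 1 and -0.21 without WT replicate 4 (adjusted p = 0.19). The call was also lost without WT replicate 2 or 5, without slit/WT replicate 3, with quantile normalization and in the fit of the compared groups alone.

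Several of the genes highest in slit/WT were nearer to the WT level in slit. This comparison and that against WT share the slit/WT arrays, which enter them with opposite sign. The genes elav, bol and Hipk were named as lowest in slit against slit/WT, a choice that by itself favours such a return. They are therefore no independent support for it. The list counts below share those arrays too. The gene elav was at 8.06, 8.08, 8.09 and 8.03 in slit, lower than in slit/WT by -1.49 (adjusted p = 9.3e-08). For bol the slit arrays lay at 11.57 to 11.88, lower by -1.28, and for Hipk at 10.79 to 10.96, lower by -1.23. Other genes were higher still in slit. CG11825 was at 11.50, 11.66, 11.78 and 11.26, higher than in slit/WT by 1.10 (adjusted p = 3.7e-10). The zinc transporter gene ZnT35C was higher by 1.39, Hsp26 by 1.19, Hsp68 by 0.996 and the antiviral gene pst by 0.98. CG7465 was lower in slit than in slit/WT by -1.31, and its slit arrays, at 10.87 to 11.01, lay below every WT array as well. Its change in slit/WT against WT was 0.47, or 0.80 without WT replicate 1, and the call was lost with quantile normalization (0.27, adjusted p = 0.13) and in the fit of the compared groups alone (adjusted p = 0.21).

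By list, 4 of 5 chaperones were higher in slit than in slit/WT, as were 19 of 48 midgut enzymes, of which 4 were lower. Of the 16 Slit pathway genes 6 were lower in slit and 1 higher (median -0.18), and of 21 other guidance genes 9 were lower and none higher. Among the lower ones were sli (-0.72), robo1 (-0.27, adjusted p = 0.0035), ena (-0.53), PlexB (-0.56) and mew (-0.49). NetB and Sdc were not called, with differences of 0.04 (adjusted p = 0.82) and -0.08 (adjusted p = 0.38).

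Set against the other heterozygous groups, slit/WT asks which of its differences it does not have in common with robo/WT and comm/WT. Against the mean of both, 3781 of 10844 genes were called (34.9%), 1566 higher (14.4%) and 2215 lower (20.4%). Against robo/WT alone 26.6% were called and against comm/WT alone 31%. These groups also differed in the log2 difference between the actin 3′ and 5′ probe sets. It was 0.79 to 0.93 in slit/WT, 1.10 to 1.53 in robo/WT and 1.14 to 2.12 in comm/WT. Its part in these calls was not tested. The largest positive difference was in Hr4, higher in slit/WT by 1.99 (adjusted p = 5.2e-25). It was followed by neo (1.39), elav (1.36), the gene CG9095 (1.33) and Lsd-2, a perilipin of lipid droplets (1.30). The largest negative differences were CG6983 (-1.05), CG11825 (-0.91), CG2162 (-0.89), CG5973 (-0.80) and Tsp42Eg (-0.78). Of these, CG6983, CG5973 and Tsp42Eg did not pass the test against WT, at -0.27 (adjusted p = 0.10), 0.01 and 0.04. Without WT replicate 1 CG6983 was called lower, at -0.45 (adjusted p = 0.0045).

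Guidance genes differed between the heterozygous groups as well. Of 16 Slit pathway genes 11 were higher in slit/WT than in the mean of robo/WT and comm/WT and 1 was lower, with a median of 0.32. Higher ones included ena (0.59), Sdc (0.48), robo1 (0.43), sli (0.41), RhoGAP93B (0.41) and comm (0.28). The reference groups are read as heterozygous for robo1 and comm, and each of these genes was lower in its own group than in WT. The differences of robo1 and comm thus in part reflect the choice of reference. NetB was higher by 0.46 (adjusted p = 8.6e-05), whereas fra differed by 0.07 (adjusted p = 0.71) and Dg by -0.09 (adjusted p = 0.55). Of the chaperones DnaJ-1 was lower in slit/WT by -0.39, and Hsp26 and Hsp68 were not called (0.23 and -0.13). Against WT the changes of NetB were 1.39 in slit/WT, 1.01 in robo/WT and 0.86 in comm/WT, in comparisons that share the WT arrays.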

How the data were processed

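The arrays are Affymetrix 3′ expression arrays of whole stage 15 embryos, labelled from 6 ug of RNA per the labels' protocols. The authors deposited intensity values on a linear scale, summarised with RMA per the submitters' processing notes. The deposited intensities were turned into log2 values before any step, and changes are log2 differences with fold beside them.

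Of 14010 probe sets, 44 controls were left out. Probe sets with 1 gene name (12443) were named through the platform annotation and RefSeq (Release 6 plus ISO1 MT), 12394 of them by Entrez identifier. For the 1209 genes with several probe sets, that with the highest mean over the 78 arrays stands for the gene, and 129 of these genes had 1 probe set called higher and another lower.

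Group means of 18 groups were fitted with limma 3.58.1 in R 4.3.3 (60 residual degrees of freedom), two-sided, with adjusted p below 0.05 taken as a call. Figures were drawn with matplotlib 3.10.9. The code was tested on simulated data. The number of arrays limits the precision, and no 2 arrays were identical. Replicate numbers did not pair the samples: the correlation of deviations between same-numbered slit/WT and WT arrays lay between -0.38 and 0.10.

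The 30 gene lists and the rules were chosen with earlier results of these data known. Named are the guidance genes of Slit and netrin, the 15 highest and 15 lowest non-overlapping called changes, up to 4 members per list, and 5 genes per direction in the other comparisons. Guidance, chaperone and marker genes beyond the rule are named where their list is counted out. The alternatives tried were removal of dim probe sets, quantile normalization, a replicate block, array weights, array SD as a covariate, a variance trend, fewer groups, and leaving out arrays. Some lists' genes were not analysed here for want of a probe set.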

Additional observations from a re-analysis of the deposited data

Results flagged for a closer look

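The levels of 118 of the 156 genes chosen by the naming rule were tested within the 5 WT and the 4 slit/WT arrays for a single array far from the rest (Dixon's test). Of 236 such groups of arrays, 32 had one, where chance alone marks about 5% of groups. WT replicate 1 accounted for 22 of the 32.

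WT replicate 1 was far above the other WT arrays for 10 genes, among them digestive proteases. Log2 intensity was 10.93 for Jon99Fi (others 7.17 to 7.47), 11.96 for Jon25Biii (others 9.55 to 9.75), 13.79 for Jon99Fii (others 10.83 to 10.92), 12.28 for epsilonTry (others 10.82 to 10.92) and 12.45 for the lysozyme gene LysD (others 11.56 to 11.65). It was also above the others for CG7465 (13.1), spen (11.55), Hipk (10.99), hry (10.45) and Hsp27 (9.708).

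The same array was far below the other WT arrays for 12 genes, among them cuticle genes and the guidance receptor gene fra. It stood at 7.681 for Cpr67Fa2, 11.71 for Cpr65Eb, 11.64 for TwdlW, 9.818 for bt and 8.853 for alrm. It stood at 10.09 for fra, 11.09 for Dg, 10.24 for Pvr, 10.82 for fne, 7.822 for Uhg1, 10.02 for CG5973 and 8.198 for Tsp42Eg. In WT replicate 2 DptB was lowest, at 11.66.

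Among the slit/WT arrays, 9 groups had a single array apart. Replicate 2 was apart for LysD (11.2), NetB (11.33), pst (8.972) and ttm2 (8.063). Replicate 3 was lowest for Jon99Fi (6.557), CG7465 (12.18) and bnl (6.251). Replicate 1 was highest for CycB (11.12), and replicate 4 was lowest for Prosbeta5R1 (7.752).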

How the results depend on the processing

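The count of 8757 probe sets called in slit/WT against WT moved by over 1.5 times under 2 alternatives. Without dim probe sets it was 5384, with 2751 higher and 2633 lower, so that the higher share of calls went from 40.2% to 51.1%. Fewer probe sets are tested there. With array SD as a covariate it was 4773, and the cause was not tested. Leaving out 1 array gave 7585 (without WT replicate 1) to 9084 (without WT replicate 2), and the counts of the other 5 results stayed within 1.5 times under every alternative run. A fit with the replicate block called 8548, but replicate numbers did not pair the samples.

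Some single genes turned direction against their main value. With array SD as a covariate the log2 change was -0.43 for CG5973, -0.019 for Gasp, -0.096 for ZnT35C, -0.11 for flz, -0.11 for mRpS30 and 0.024 for tup. CG5973 was -0.21 without the arrays that stand apart, and comm was -0.0030 with quantile normalization. Another probe set of the same gene gave -0.066 for Hr4, -0.029 for Mp, -0.10 for Msp300, -0.092 for Vmat, -0.018 for drpr, 0.30 for futsch, -0.11 for kmr, -0.042 for obst-E and 0.47 for tup. Why these turned was not tested. Of 153 called named genes 105 had the same call in every refit they entered, and 38 lost it with the covariate.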
